A study of Homo sapiens with 6 samples.

Results

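Tumour angiogenic factors are the secreted proteins, with a co-receptor, through which a tumour acts on nearby blood vessels. They were chosen by name as VEGFA, VEGFB, VEGFC, PGF, PDGFB, EDN1, ANGPT1, ANGPTL4, NRP1 and THBS1, and every transcript row carrying such a symbol was taken. Of these 10 genes, 9 had rows among the 29236 symbols of the deposited table, with 67 transcripts, and VEGFC was not analysed here. The samples were xenograft tumours of HT-29, an established human colorectal cancer cell line of wild-type label, grown in a host animal. In the ESV group the tumours had received 60 mJ extracorporeal shock waves, pressure pulses applied from outside the body. The control group was labelled as untreated, and both groups were sampled at day 15 of the therapy, with 3 samples each. Nothing in the labels ties the samples of a group to separate animals, so p-values measure the spread between these samples, which may be technical. Values are in FPKM (fragments per kilobase per 1000000 fragments), a unit that corrects for transcript length and so allows levels of different genes to be compared.

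VEGFA is the main growth signal of blood vessel endothelium and acts through receptor tyrosine kinases on that endothelium, with NRP1 as a co-receptor that also binds semaphorins. VEGFB and PGF are related ligands of the receptor FLT1. PDGFB recruits pericytes to new vessels, EDN1 is a peptide that constricts vessels, ANGPT1 is a ligand of the endothelial receptor TEK, ANGPTL4 is a secreted inhibitor of lipoprotein lipase, and THBS1 is a matrix protein known as an inhibitor of angiogenesis. In many tumours VEGFA and ANGPTL4 are induced at low oxygen through hypoxia-inducible factors, and splicing of VEGFA, VEGFB and PGF decides whether the protein binds heparin in the matrix or diffuses.

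The ends of the coding sequences of these splice forms are shown because the table gives the forms separate rows. The sequences are those of GENCODE release 29 on GRCh38, written 5′ to 3′ as the coding strand and ending with the stop codon. For VEGFA, on the plus strand of chromosome 6, capitals mark the 132 bases of the alternative exon at chr6:43781956-43782087, which encodes heparin-binding sequence and is absent from the shorter form.
VEGFA with the exon (ENST00000372067): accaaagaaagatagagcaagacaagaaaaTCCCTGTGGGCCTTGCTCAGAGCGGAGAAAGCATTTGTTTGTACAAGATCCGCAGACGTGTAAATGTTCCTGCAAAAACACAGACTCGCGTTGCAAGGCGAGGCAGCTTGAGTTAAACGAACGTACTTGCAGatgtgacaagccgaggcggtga
VEGFA without the exon (ENST00000372064): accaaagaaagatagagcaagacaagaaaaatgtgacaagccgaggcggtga
For PGF, on the minus strand of chromosome 14, capitals mark the 63 bases of the heparin-binding insert of the longer form.
PGF longer form (ENST00000555567): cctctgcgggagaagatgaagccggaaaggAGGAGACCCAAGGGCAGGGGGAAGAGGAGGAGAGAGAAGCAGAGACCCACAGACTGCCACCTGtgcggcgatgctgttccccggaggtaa
PGF shorter form (ENST00000553716): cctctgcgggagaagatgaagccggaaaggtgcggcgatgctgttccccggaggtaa
For VEGFB, on the plus strand of chromosome 11, capitals mark 101 bases that are spliced out in the shorter form, after which the 2 forms are read in different frames and end differently.
VEGFB longer form (ENST00000309422): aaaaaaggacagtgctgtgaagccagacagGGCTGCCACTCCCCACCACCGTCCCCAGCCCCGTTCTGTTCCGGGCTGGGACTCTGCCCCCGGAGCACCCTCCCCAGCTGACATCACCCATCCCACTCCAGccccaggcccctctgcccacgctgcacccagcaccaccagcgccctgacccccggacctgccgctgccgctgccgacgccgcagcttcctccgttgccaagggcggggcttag
VEGFB shorter form (ENST00000426086): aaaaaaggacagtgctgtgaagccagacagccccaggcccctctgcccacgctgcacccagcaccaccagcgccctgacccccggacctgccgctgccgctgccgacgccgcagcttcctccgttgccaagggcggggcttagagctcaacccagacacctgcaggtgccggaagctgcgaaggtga
For NRP1, on the minus strand of chromosome 10, capitals mark the bases after the point where a shorter form leaves the full-length receptor. The shorter form stops after 11 such bases, and of the full-length receptor the next 60 bases are given.
NRP1 shorter form (ENST00000374822): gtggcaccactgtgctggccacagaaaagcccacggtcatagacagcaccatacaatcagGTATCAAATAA
NRP1 full-length receptor (ENST00000374867): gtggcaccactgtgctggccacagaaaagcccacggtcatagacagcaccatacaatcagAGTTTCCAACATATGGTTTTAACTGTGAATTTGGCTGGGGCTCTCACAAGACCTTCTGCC

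Libraries held 55197100, 55246900 and 58548200 reads in ESV tumours and 52182400, 55501600 and 48298300 reads in controls, as recovered from the values to 6 digits. ESV replicate 3 stood apart. Over the 13437 tested genes with a known length, its log2 level changed by -0.18 for each doubling of transcript length, against -0.05 and 0.04 in ESV replicates 1 and 2 and 0.05 to 0.07 in the controls. Of all 13448 genes tested, 25.0% were highest and 35.2% lowest in that library. The log2 changes of the angiogenic factors that rest on it, and the signs of the hypoxia targets as a set, are therefore also given without it. The epithelial origin of the tumours was plain in the data, with EPCAM at 427, 409 and 599.9 FPKM in ESV tumours and 389, 398 and 361 FPKM in controls.

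Between ESV tumours and controls, none of the 9 genes passed the threshold. All 9 passed a filter of 1 FPKM or more in 3 or more libraries and were tested with the other genes in limma, on log2(FPKM + 1). Limma called 0 of the 13448 genes (0%) at a Benjamini-Hochberg adjusted p of 0.05, and 932 genes (6.93%) had an unadjusted p under 0.05, against 0 of the 9. On recovered reads, limma voom called 2 genes, both lower and neither an angiogenic factor. The groups did not overlap for 1 of the 9, ANGPT1, while this held for 16.4% of all genes tested (7.75% above every control and 8.69% below). Of the 9, 3 had a positive log2 change and 6 a negative one, with a median of -0.16, where 48.4% of all genes were positive with a median of -0.01. Of 28517 single transcripts tested, limma called 58 (0.203%), of which 22 were higher (0.0771%) and 36 lower (0.126%) in ESV tumours. It called 0 of the 19 tested transcripts of these genes, whose smallest adjusted p was 0.752. Unadjusted, 6.58% of all transcripts and 0 of the 19 had a p under 0.05, and the groups did not overlap for 14.2% of all transcripts and 0 of the 19.

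**Figure D1:**
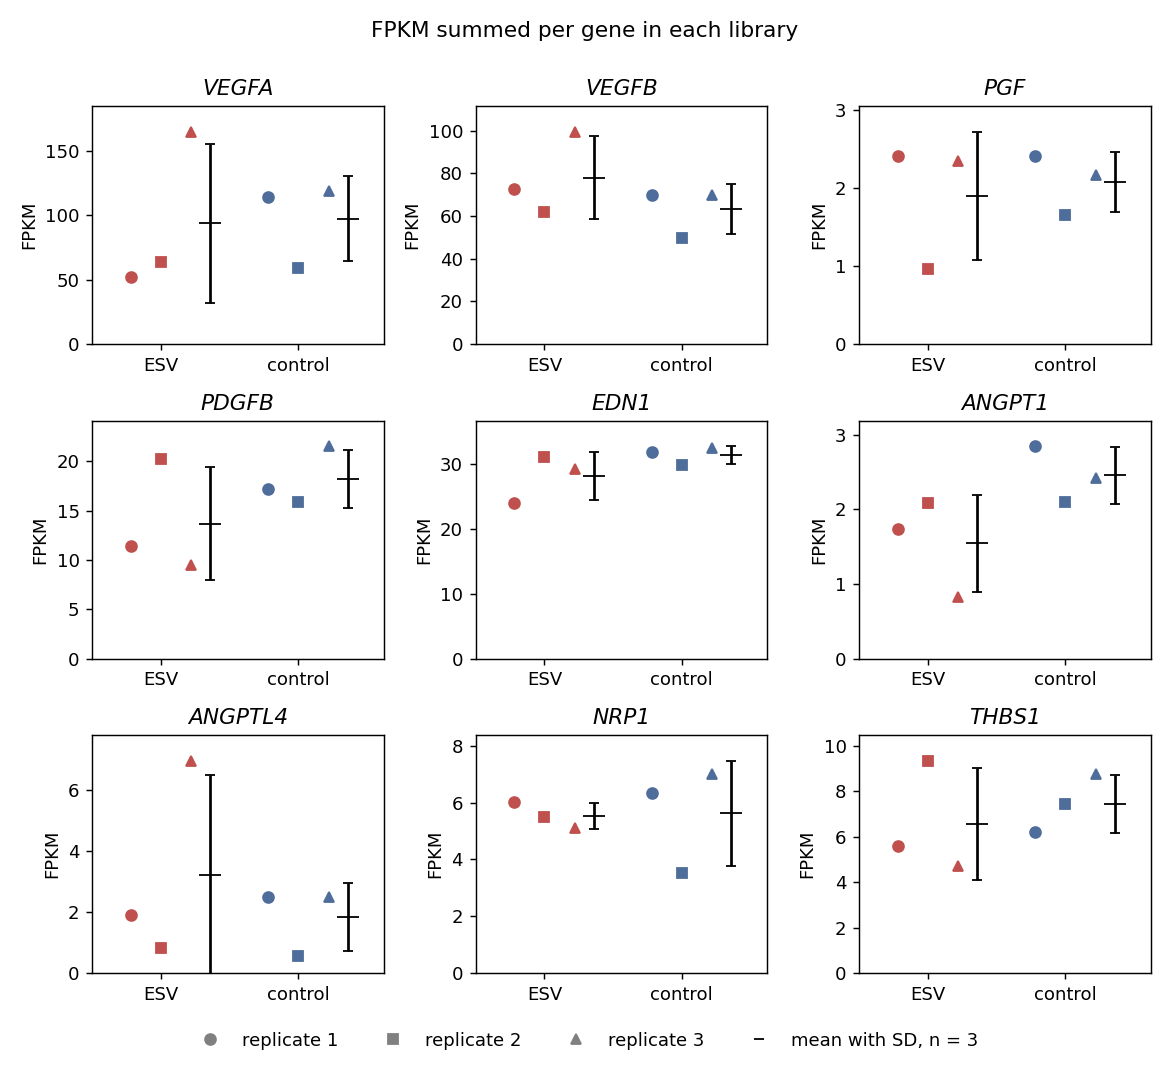
FPKM summed per gene (vertical axes, from 0) in each of the 3 ESV and 3 control libraries, with the group mean and SD beside the points (n = 3 each; the lower SD bar of ANGPTL4 reaches below 0 and is not drawn there). VEGFA, VEGFB and ANGPTL4 are highest in ESV replicate 3, while PDGFB, THBS1 and ANGPT1 are lowest in it.

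By mean FPKM over the 6 libraries the order was VEGFA at 95.3, VEGFB at 70.6, EDN1 at 29.7, PDGFB at 15.9, THBS1 at 7.001, NRP1 at 5.58, ANGPTL4 at 2.54, ANGPT1 at 2.00 and PGF at 1.99. The ranges over libraries of VEGFA and VEGFB overlapped, as did those of THBS1 and NRP1, of NRP1 and ANGPTL4, and of the 3 lowest genes. VEGFB stayed above EDN1, EDN1 above PDGFB and PDGFB above THBS1 in the sense that the ranges of these neighbours did not overlap. Among all symbols of the table the mean of VEGFA lay above that of 97.6%, and that of PGF above 60.2%. The order counts all transcripts of a gene. On coding transcripts alone VEGFA averaged 16.6 FPKM in ESV tumours and 19.3 FPKM in controls. That was below VEGFB, at 76.8 and 62.3 FPKM, and below EDN1, at 28.1 and 31.3 FPKM.

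VEGFA, on the plus strand of chromosome 6 at 43770184 to 43786487 (hg38), measured 52.2, 63.5 and 165 FPKM in ESV tumours and 114, 59.0 and 119 FPKM in controls. The group with shock waves held both the lowest and the highest library, and the groups overlapped fully. Means were 93.5 ± 61.9 FPKM in ESV tumours and 97.2 ± 33.2 FPKM in controls (SD, n = 3 each), a log2 change of -0.18 with a 95% interval of -1.30 to 0.94 and a limma adjusted p of 0.897. The sign turned with the library left out. It was -0.68 without ESV replicate 3, 0.14 without ESV replicate 1 and 0.00 without ESV replicate 2, with adjusted p of 0.826, 0.921 and 0.999 in limma.

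Most of the VEGFA signal lay on transcripts that GENCODE annotates as retained introns with no coding sequence. These 6 of the 21 transcripts held 57.3, 83.9 and 89.5% of the FPKM of VEGFA in ESV tumours and 77.1, 88.2 and 79.1% in controls. The most abundant, ENST00000497139, measured 8.32, 31.9 and 115 FPKM in ESV tumours and 56.3, 28.7 and 52.0 FPKM in controls. Of its 2746 bases, 2006 also lie in exons of coding VEGFA transcripts, 1861 of these outside the coding sequence, and 740 lie in none. The values correspond to nearly whole numbers of reads per transcript, but how reads were assigned is not given. A read from the shared bases may have been counted on either kind of transcript. ENST00000480614, a retained intron of 12167 bases, was highest in ESV replicate 1 with 12.5 FPKM, against 1.80 and 2.52 FPKM in the other ESV tumours and 4.64, 2.11 and 3.96 FPKM in controls. ENST00000476772 measured 1.35, 10.1 and 18.9 FPKM in ESV tumours and 16.7, 16.0 and 19.7 FPKM in controls. ESV replicate 1 was thus low on both of the leading retained introns. The short retained introns ENST00000512683 and ENST00000493786 lay between 2.54 and 12.7 FPKM in every library, with overlapping groups.

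The 15 coding transcripts of VEGFA summed to 22.3, 10.2 and 17.3 FPKM in ESV tumours and 26.1, 6.97 and 24.9 FPKM in controls (p = 0.7 in an exact two-sided permutation test that can reach 0.1 at best). On these rows ESV replicate 3 was not the highest library. Counted in reads, VEGFA took 294, 191 and 496 reads per 1000000 on annotated transcripts in ESV tumours and 371, 172 and 341 in controls. ESV replicate 1 was the lowest library in FPKM but the fourth highest in reads. Of its 13747 VEGFA reads, 8408 lay on the 12167-base retained intron ENST00000480614. That row held 1210 and 1794 reads in the other ESV tumours and 2944, 1425 and 2326 in controls. On recovered reads the log2 change of VEGFA was 0.12 (limma voom adjusted p = 0.929), of opposite sign to that in FPKM. Coding transcripts with the alternative exon printed above held 71.3, 91.6 and 89.0% of the coding FPKM in ESV tumours and 76.2, 88.3 and 61.9% in controls. The leading coding row with that exon, ENST00000372067, measured 12.9, 6.64 and 10.3 FPKM in ESV tumours and 14.9, 0.795 and 11.1 FPKM in controls. Other coding rows were high in only 1 or 2 libraries. ENST00000372077 measured 6.02 FPKM in ESV replicate 1 and at most 0.00676 FPKM elsewhere, and ENST00000519767 measured 4.33 and 8.196 FPKM in control replicates 1 and 3 and was listed at 0 in the other 4 libraries. ENST00000425836 was present throughout, at 1.58, 1.06 and 2.01 FPKM in ESV tumours and 2.68, 1.33 and 1.88 FPKM in controls. ENST00000518689 and ENST00000230480 reached at most 2.14 and 2.23 FPKM.

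**Figure D2:**
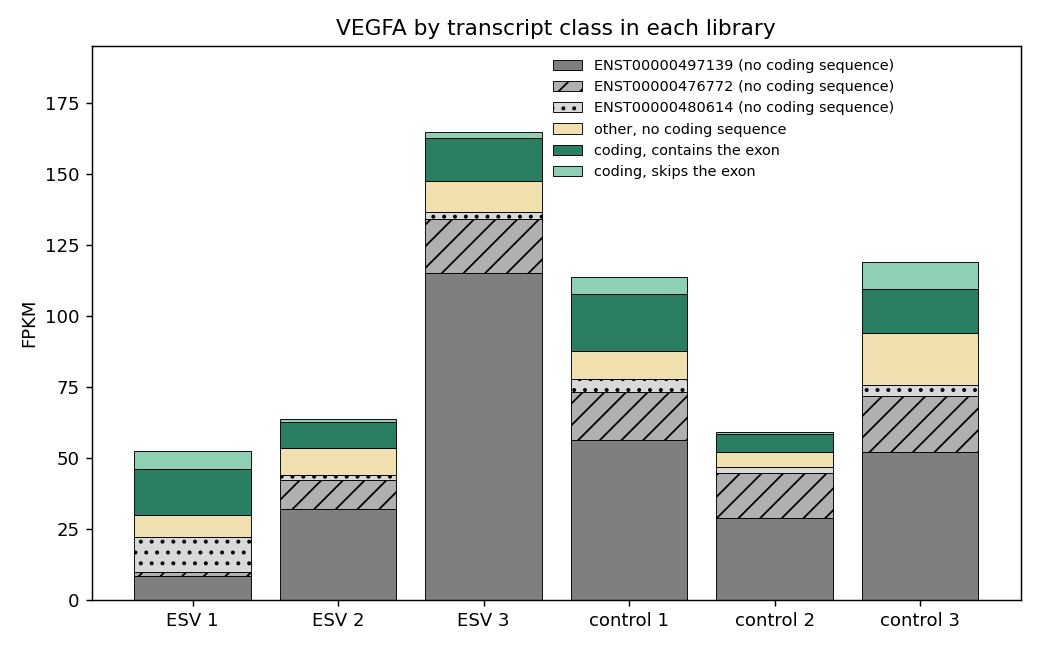
FPKM of VEGFA (vertical axis, from 0) in each library, stacked by transcript class, with ESV libraries on the left and controls on the right. The grey and sand parts have no coding sequence and the green parts are coding transcripts with or without the alternative exon. The dark grey part, ENST00000497139, reaches 115 FPKM in ESV replicate 3 and 8.32 FPKM in ESV replicate 1.

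VEGFB, on the plus strand of chromosome 11 at 64234538 to 64238793, measured 72.8, 61.8 and 99.6 FPKM in ESV tumours and 70.0, 49.6 and 69.8 FPKM in controls. ESV replicate 3 was highest and control replicate 2 lowest, and the groups overlapped. On the log2 scale VEGFB differed by 0.29 (95% interval -0.23 to 0.82, limma adjusted p = 0.672), and 0.10 without ESV replicate 3. The longer form made up 77.8, 81.3 and 79.7% of VEGFB in ESV tumours and 80.9, 79.6 and 80.6% in controls, so both groups carried the 2 forms at closely similar shares. The shorter form, whose end binds heparin, measured 15.1, 9.80 and 19.1 FPKM in ESV tumours and 12.1, 9.48 and 12.5 FPKM in controls. A retained intron, ENST00000543462, lay between 0.462 and 1.58 FPKM.

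PGF, which encodes placental growth factor, lies on the minus strand of chromosome 14 at 74941834 to 74955784. It measured 2.40, 0.955 and 2.34 FPKM in ESV tumours and 2.40, 1.65 and 2.16 FPKM in controls. ESV replicate 2 was the lowest library, and the other 5 lay between 1.65 and 2.40 FPKM. PGF had a log2 change of -0.12 (95% interval -0.75 to 0.51, limma adjusted p = 0.877), and 0.14 without ESV replicate 2. At 90 to 227 reads per library the forms were thinly covered. The shorter form measured 0.874, 0.842 and 1.89 FPKM in ESV tumours and 1.21, 0.658 and 0.707 FPKM in controls, and the 2 rows with the longer end together 1.11, 0.0188 and 0.204 FPKM in ESV tumours and 0.637, 0 and 0.806 FPKM in controls.

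PDGFB, on the minus strand of chromosome 22 at 39223359 to 39244751, measured 11.4, 20.2 and 9.45 FPKM in ESV tumours and 17.2, 15.9 and 21.5 FPKM in controls. ESV replicates 1 and 3 lay below every control and ESV replicate 2 lay among them. For PDGFB the log2 change was -0.45 (95% interval -1.11 to 0.22, limma adjusted p = 0.648), and -0.24 without ESV replicate 3. Without ESV replicate 2 it was -0.75 (limma adjusted p = 0.314). Nearly all of it was ENST00000331163, which encodes 241 residues, at 11.2, 19.0 and 9.45 FPKM in ESV tumours and 16.5, 15.2 and 21.5 FPKM in controls.

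EDN1, the gene of endothelin-1, had the least variable level of the 9. It lies on the plus strand of chromosome 6 at 12290363 to 12297194 and has 1 transcript in the table, ENST00000379375. It measured 24.0, 31.1 and 29.1 FPKM in ESV tumours and 31.7, 29.9 and 32.4 FPKM in controls, with ESV replicate 1 lowest. EDN1 had a log2 change of -0.16 (95% interval -0.49 to 0.17, limma adjusted p = 0.690), and between -0.24 and -0.06 with any 1 library left out.

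ANGPT1, on the minus strand of chromosome 8 at 107249482 to 107498055, was the gene whose groups did not overlap in FPKM. It measured 1.73, 2.08 and 0.819 FPKM in ESV tumours and 2.85, 2.096 and 2.42 FPKM in controls. ESV replicate 2 and control replicate 2 were almost level, and ESV replicate 3 was far below the rest. Of all genes tested, 8.69% lay below every control in all ESV tumours, so 1 of 9 is near that background. The log2 change was -0.47 (95% interval -1.05 to 0.10, limma adjusted p = 0.648), and -0.25 without ESV replicate 3. The values rest on 228, 306 and 201 reads in ESV tumours and 331, 323 and 270 reads in controls. Per 1000000 reads on annotated transcripts these were 4.88, 6.604 and 3.94 in ESV tumours and 7.54, 6.90 and 6.583 in controls, so on this scale ESV replicate 2 lay just above control replicate 3 and the groups overlapped.

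ANGPTL4, on the plus strand of chromosome 19 at 8363299 to 8374373, varied most among the 9 on the log2 scale. It measured 1.89, 0.827 and 6.96 FPKM in ESV tumours and 2.50, 0.555 and 2.49 FPKM in controls. Replicate 2 was the lowest library of the ESV and of the control group, and ESV replicate 3 stood above all others. The log2 change was 0.38 (95% interval -1.01 to 1.77, limma adjusted p = 0.815), and it was -0.21 without ESV replicate 3 and -0.01 without control replicate 2. With the trend on transcript length removed it was 0.35. The coding transcript ENST00000301455, of 406 residues, measured 1.87, 0.809 and 6.26 FPKM in ESV tumours and 2.03, 0.537 and 1.80 FPKM in controls.

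The promoters of ANGPTL4 and EDN1 are printed because the core of the hypoxia response element, ACGTG, occurs in them. Whether low oxygen had a part in the levels of either gene was not tested. RefSeq's table on GRCh38.p14 held 8 promoters for 5 of the 9 genes (EDN1, VEGFB, PGF, THBS1 and ANGPTL4). The 250 bases before each start site were searched for ACGTG on both strands, and capitals mark the match, which is here its reverse complement CACGT.
ANGPTL4 (chr19:8363905-8364154, plus strand): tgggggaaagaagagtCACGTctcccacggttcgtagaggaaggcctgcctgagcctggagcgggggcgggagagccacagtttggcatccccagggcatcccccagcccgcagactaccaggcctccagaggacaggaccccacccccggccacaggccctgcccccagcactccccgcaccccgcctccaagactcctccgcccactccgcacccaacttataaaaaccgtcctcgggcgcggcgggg
EDN1 (chr6:12290111-12290360, plus strand): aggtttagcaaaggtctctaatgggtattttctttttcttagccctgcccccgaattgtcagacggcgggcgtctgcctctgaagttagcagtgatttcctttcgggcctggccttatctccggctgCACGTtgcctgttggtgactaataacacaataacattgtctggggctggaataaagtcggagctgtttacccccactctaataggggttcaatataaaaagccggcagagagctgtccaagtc
The letters were found in 3 of the 8 promoters, the other being an upstream promoter of EDN1, and in 18.5% of all 35116 promoters of that table. A match is a description of letters and not of a bound site. The promoters of VEGFB, PGF and THBS1 did not hold these letters in this window.

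NRP1, on the minus strand of chromosome 10 at 33177492 to 33336262, encodes neuropilin-1. It measured 6.03, 5.48 and 5.11 FPKM in ESV tumours and 6.34, 3.51 and 7.004 FPKM in controls. All ESV tumours lay within the range of the controls, of which replicate 2 was lowest. The log2 change was 0.02 (95% interval -0.57 to 0.62, limma adjusted p = 0.976), and it was -0.03 without ESV replicate 1 and -0.23 without control replicate 2. Rows that end like the full-length receptor, which spans the membrane, summed to 3.52, 2.97 and 2.66 FPKM in ESV tumours and 2.91, 2.21 and 3.58 FPKM in controls. The 5 complete reading frames with another end, which include the kind known as soluble NRP1, summed to 2.14, 2.25 and 2.27 FPKM in ESV tumours and 3.44, 1.19 and 3.25 FPKM in controls.

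Which row carried the NRP1 reads differed between libraries of the same group. ENST00000395995, of 906 residues, held 2.56 FPKM in ESV replicate 1 and was listed at 0 in the other 5 libraries. ENST00000374867, the full-length receptor of 923 residues, measured 0.410, 2.58 and 1.09 FPKM in ESV tumours and 0.714, 0.386 and 2.05 FPKM in controls. The shorter form printed above, ENST00000374822, of 644 residues with the first 641 shared, measured 1.79, 0.916 and 1.15 FPKM in ESV tumours and 1.10, 0.00814 and 2.14 FPKM in controls. ENST00000374875, whose last 303 residues are those of the full-length receptor, had the smallest p of the tested transcripts of these genes. It measured 0.539, 0.392 and 1.57 FPKM in ESV tumours and 2.19, 1.82 and 1.54 FPKM in controls, a log2 change of -0.68 (95% interval -1.41 to 0.04, limma adjusted p = 0.752).

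**Figure D3:**
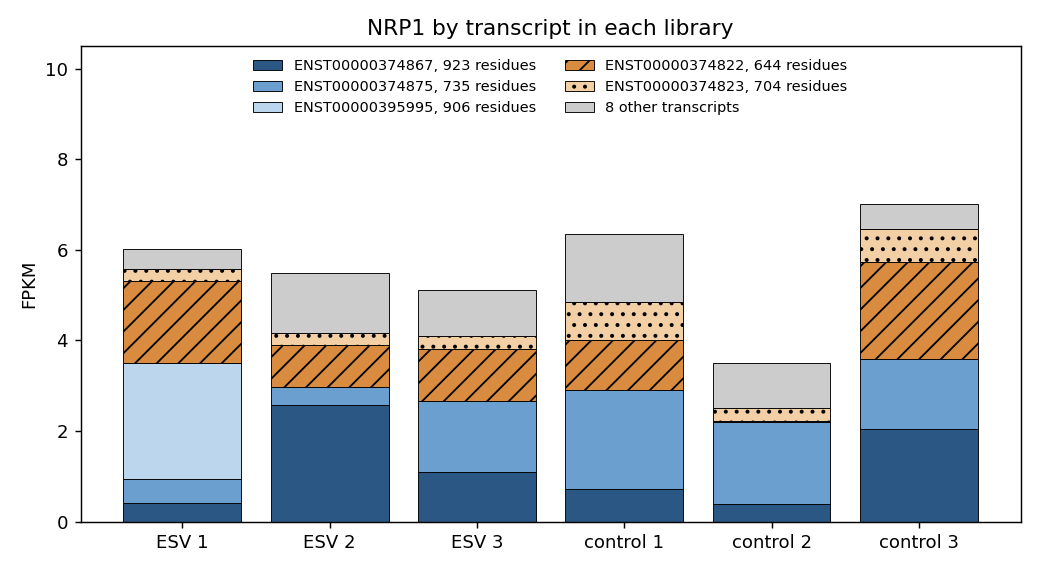
FPKM of NRP1 (vertical axis, from 0) in each library, stacked by transcript, with ESV libraries on the left. Blue parts are reading frames that end like the full-length receptor and orange parts are 2 of the frames with another end. The pale blue row of 906 residues appears in ESV replicate 1 alone.

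THBS1, on the plus strand of chromosome 15 at 39581079 to 39599466, measured 5.60, 9.34 and 4.70 FPKM in ESV tumours and 6.20, 7.42 and 8.74 FPKM in controls. The highest and the lowest library were both ESV tumours. The log2 change was -0.20 (95% interval -0.82 to 0.42, limma adjusted p = 0.781), -0.02 without ESV replicate 3, -0.45 without ESV replicate 2, -0.39 on recovered reads (limma voom) and -0.01 with the length trend removed. Its coding transcript ENST00000260356, of 1170 residues and 7775 bases, measured 4.16, 7.29 and 3.15 FPKM in ESV tumours and 5.26, 5.82 and 6.88 FPKM in controls.

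**Figure D4:**
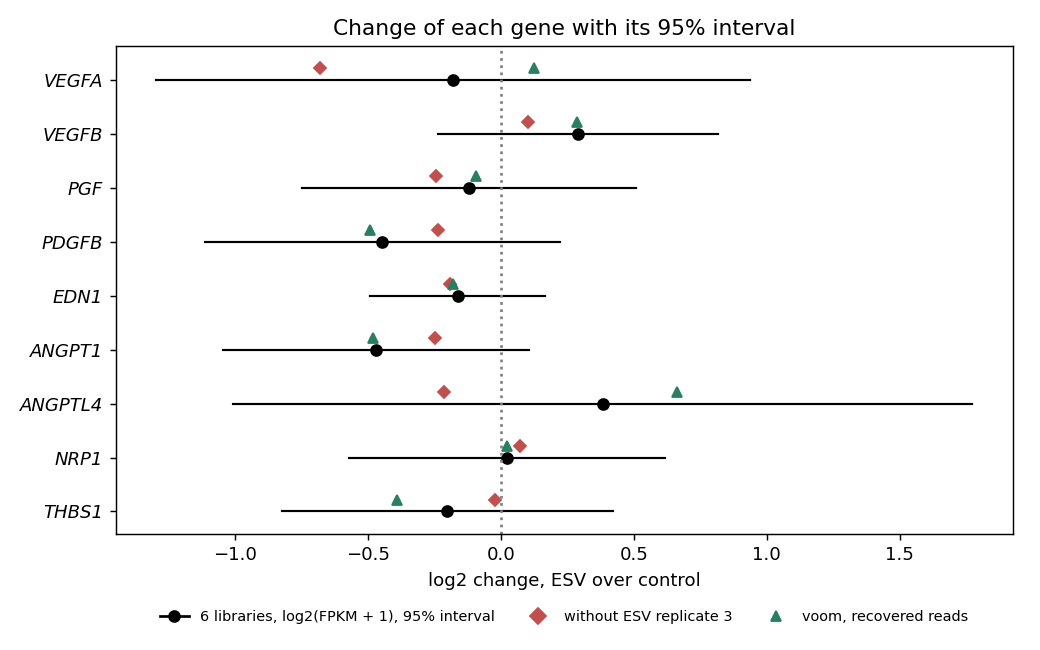
Log2 change of each gene, ESV over control (horizontal axis), from limma on log2(FPKM + 1) with its 95% interval (black), beside the values without ESV replicate 3 (red) and from limma voom on recovered reads (green). Every interval includes 0, and VEGFA and ANGPTL4 have the widest.

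Some of the genes with the most similar profile to VEGFA and ANGPTL4 over the 6 libraries are known to respond to low oxygen. The profile of VEGFA is that of all its transcripts, with most of the signal on retained introns. Its coding transcripts were not highest in ESV replicate 3, and their likeness to other genes was not computed. By the root mean square difference of log2(FPKM + 1) after centring on the mean of the 6 libraries, the genes most like VEGFA among 8966 with a mean of at least 5 FPKM were SNRPD2 at 0.06, P4HA1 at 0.16 and PLOD2 at 0.16, where the values of VEGFA itself spread by 0.61. P4HA1, a collagen prolyl hydroxylase subunit, measured 24.8, 25.9 and 69.9 FPKM in ESV tumours and 40.5, 22.7 and 40.9 FPKM in controls. The genes most like ANGPTL4, among 8967, were ADM at 0.13, PMM1 at 0.13 and DDIT4 at 0.18, against its own spread of 0.76. ADM, the vasodilator adrenomedullin, measured 14.5, 11.3 and 44.5 FPKM in ESV tumours and 21.8, 7.50 and 18.3 FPKM in controls. Without ESV replicate 3, over 5 libraries, SNRPD2, P4HA1 and PLOD2 differed from VEGFA by 0.06, 0.17 and 0.17, where VEGFA itself spread by 0.49. PMM1, ADM and DDIT4 then differed from ANGPTL4 by 0.12, 0.14 and 0.19, where ANGPTL4 itself spread by 0.49. These genes were chosen over all 6 libraries and not ranked anew without ESV replicate 3, so their closeness there is not a separate test. The genes most like EDN1 were DYNC1I2 at 0.03, NUP133 at 0.04 and MORF4L1P1 at 0.04, against its own spread of 0.14.

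Of 22 tested hypoxia targets, 0 passed, 11 had a positive and 11 a negative change, and the median was -0.01. Their mean log2 level relative to the control mean was -0.26, -0.46 and 0.55 in ESV tumours and 0.08, -0.29 and 0.20 in controls. ESV replicate 3 was thus the highest library, and replicate 2 was the lowest of each group, as it was for ANGPTL4. Of these targets, 15 (68.2%) were highest in ESV replicate 3, against 25.0% of all genes tested. Without that library, 2 of the 22 targets had a positive and 20 a negative difference between ESV tumours and controls. The median was -0.34 on the log2 scale, against 0.01 over all genes tested, so the even split of signs rests on that library. The share of negative genes over all genes was not computed there. Genes that vary together are not separate results, and control replicate 2, at -0.29, lay lower than ESV replicate 1 at -0.26. CA9, a carbonic anhydrase, measured 122, 77.5 and 391 FPKM in ESV tumours and 142, 113 and 155 FPKM in controls. NDRG1 measured 207, 145 and 734 FPKM in ESV tumours and 431, 124 and 394 FPKM in controls. CA9, NDRG1 and EGLN3 were picked for display after their values were seen. The part of transcript length and of library quality in this order was not tested.

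**Figure D5:**
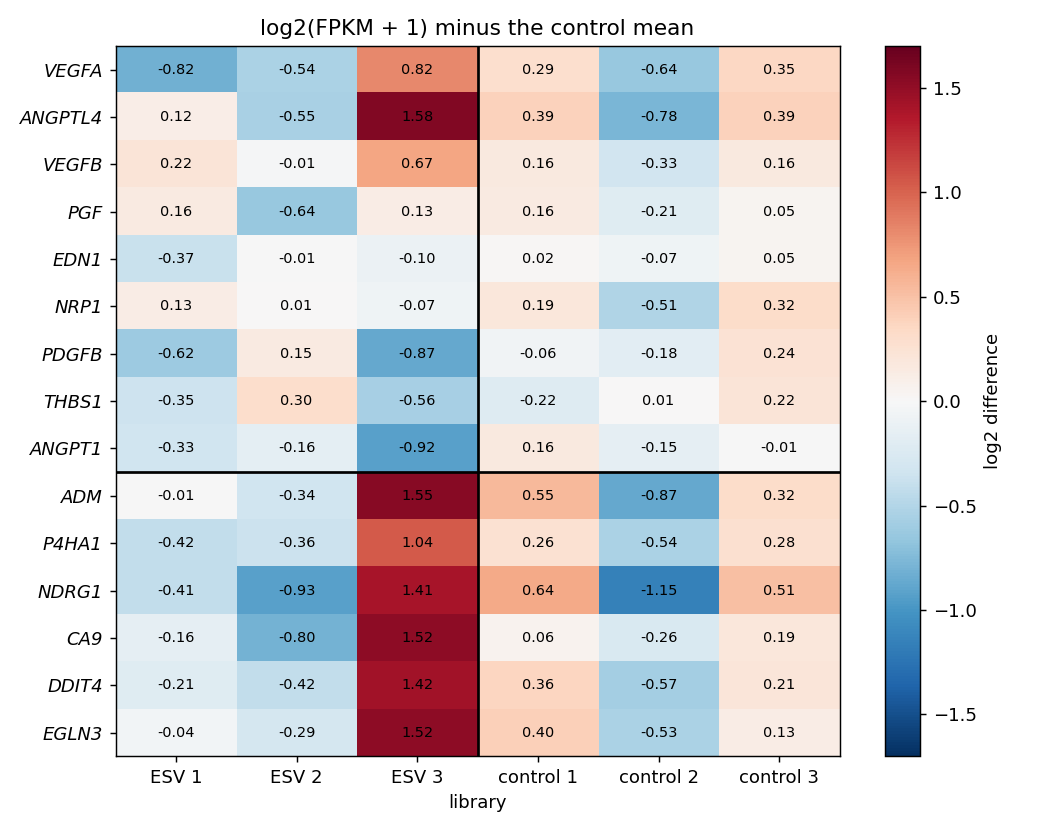
Log2(FPKM + 1) of each gene minus its mean over the 3 controls, by library, with the 9 angiogenic factors above the line and 6 hypoxia-related genes below it. The colour scale runs from blue (below the control mean) to red (above it). In ESV replicate 3, VEGFA, summed over all its transcripts, lies at 0.82, ANGPTL4 at 1.58 and the 6 genes below the line between 1.04 and 1.55. Of these, ADM, P4HA1 and DDIT4 were chosen by likeness to VEGFA or ANGPTL4. NDRG1, CA9 and EGLN3 were picked with their values in view. Their high values there are therefore not separate evidence.

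Of the hypoxia targets the smallest p belonged to PFKFB3, MXI1 and KDM3A. PFKFB3, a regulator of glycolysis, measured 10.9, 15.3 and 12.7 FPKM in ESV tumours and 25.6, 15.5 and 27.4 FPKM in controls, with a log2 change of -0.74 (limma adjusted p = 0.648). MXI1, an antagonist of MYC, measured 12.1, 8.42 and 24.3 FPKM in ESV tumours and 29.3, 32.5 and 24.1 FPKM in controls. Of 8 oxygen-sensing genes 0 passed, 5 were negative, and the median was -0.23. For 6 of the 8 (75%) the lowest library was ESV replicate 3, against 35.2% of all genes tested. The median was not computed without that library. HIF1A, the inducible subunit of the hypoxia factor, measured 16.5, 20.5 and 13.8 FPKM in ESV tumours and 20.3, 19.1 and 18.9 FPKM in controls. Its partner ARNT measured 7.68, 6.92 and 4.96 FPKM in ESV tumours and 9.41, 7.81 and 8.02 FPKM in controls, so its groups did not overlap. Nor did those of HIF1AN, an oxygen-dependent inhibitor of HIF1A, at 6.52, 7.53 and 5.04 FPKM in ESV tumours and 7.77, 7.82 and 8.13 FPKM in controls. Of the 8 genes, these 2 lay below every control in all ESV tumours, against 8.69% of all genes tested. Both had a limma adjusted p of 0.648.

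The partners of VEGF and NRP1 had 7 tested genes of 14, with 0 past the threshold, 6 negative and a median of -0.31. For 5 of the 7 (71.4%) the lowest library was ESV replicate 3, against 35.2% of all genes tested. The median was not computed without that library. PLXND1, a semaphorin receptor, measured 42.3, 35.2 and 33.6 FPKM in ESV tumours and 50.8, 42.8 and 45.4 FPKM in controls, without overlap. PLXNA1, which pairs with NRP1, measured 20.9, 34.3 and 16.0 FPKM in ESV tumours and 50.7, 45.3 and 24.3 FPKM in controls. SEMA3F, a ligand of neuropilins, measured 10.2, 7.33 and 9.51 FPKM in ESV tumours and 10.96, 11.9 and 11.2 FPKM in controls, without overlap. Each of these 3, named for the smallest p of the list, had a limma adjusted p of 0.648. Of the 7 tested genes, 2 lay below every control in all ESV tumours, against 8.69% of all genes tested.

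In the families of the other members 0 genes passed. PDGFA measured 2.81, 4.80 and 1.57 FPKM in ESV tumours and 3.41, 1.32 and 11.9 FPKM in controls. ECE1, the enzyme that releases mature endothelin, measured 48.9, 48.1 and 44.0 FPKM in ESV tumours and 52.6, 47.7 and 54.6 FPKM in controls. EDN2, a related endothelin gene, measured 0.836, 0.350 and 3.26 FPKM in ESV tumours and 1.39, 0.174 and 1.60 FPKM in controls, again highest in ESV replicate 3. CD47, a receptor of THBS1, measured 90.0, 104 and 105 FPKM in ESV tumours and 87.2, 92.2 and 95.5 FPKM in controls. Of the 10 other angiopoietin-family genes 0 could be tested, and the receptor gene TEK reached at most 0.0564 FPKM.

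Among 16 tested genes of other angiogenic ligands 0 passed, 9 were positive and 7 negative, with a median of 0.01. HBEGF, an EGF receptor ligand, had the smallest p. It measured 7.60, 9.94 and 7.12 FPKM in ESV tumours and 9.99, 13.6 and 11.2 FPKM in controls. Each ESV tumour was below every control, which held for 1 of the 16 genes and 8.69% of all genes tested. The log2 change of HBEGF was -0.45 (limma adjusted p = 0.648). MDK, the growth factor midkine, was the most abundant and measured 103, 59.7 and 120 FPKM in ESV tumours and 79.4, 50.8 and 63.2 FPKM in controls. CXCL8, a chemokine that acts on neutrophils and endothelium, measured 4.63, 18.4 and 5.38 FPKM in ESV tumours and 8.13, 5.74 and 10.2 FPKM in controls. Of 8 tested PPAR-related partners of ANGPTL4, 5 were negative and 0 passed, with a median of -0.27. PPARA, a fatty acid receptor, measured 3.09, 2.42 and 2.26 FPKM in ESV tumours and 3.57, 5.41 and 3.70 FPKM in controls, without overlap. Its limma adjusted p was 0.648. Of the 8 genes, 2 lay below every control in all ESV tumours, against 8.69% of all genes tested.

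Cells of vessels and stroma belong to the host animal in a xenograft, and the table lists human transcripts, so such cells can be seen only through reads that matched human sequence. In bulk samples, fewer cells of a type and less RNA per cell cannot be told apart. Endothelial markers were near 0, with 8 of 10 listed genes under 1 FPKM in every library, among them CDH5, VWF, TEK and PLVAP, and a summed level of 7.95 to 13.4 FPKM in ESV tumours and 3.38 to 8.49 FPKM in controls. EGFL7 and ESAM made up most of that sum. Pericyte and smooth muscle markers summed to 16.4 to 29.1 FPKM in ESV tumours and 30.8 to 37.4 FPKM in controls, most of it CSPG4, without overlap (exact permutation p = 0.1, two-sided and at its lowest bound, and 0.36 adjusted over 6 marker lists). Without CSPG4 the other 7 markers in the table summed to 4.43, 4.67 and 2.48 FPKM in ESV tumours and 4.65, 4.83 and 5.78 FPKM in controls, and the groups overlapped. TAGLN measured 0.218, 0.986 and 0.165 FPKM in ESV tumours and 1.68, 2.25 and 2.32 FPKM in controls, without overlap. Its log2 change was -1.12 (limma adjusted p = 0.648). Of the 3 tested genes of this list, 2 (TAGLN and CSPG4) lay below every control in all ESV tumours, against 8.69% of all genes tested. ACTA2 measured 2.58, 1.38 and 1.05 FPKM in ESV tumours and 1.14, 0.960 and 1.33 FPKM in controls, and DES averaged 0.857 FPKM in ESV tumours and 0.404 FPKM in controls, both with a higher mean in ESV tumours. Fibroblast markers summed to 4.80 to 15.9 FPKM in ESV tumours and 10.95 to 26.7 FPKM in controls, macrophage markers to 10.4 to 12.7 FPKM in ESV tumours and 11.7 to 18.6 FPKM in controls. Platelet markers summed to 0.992 to 2.72 FPKM in ESV tumours and 0.581 to 1.76 FPKM in controls. The part of these cells in the levels of PDGFB, ANGPT1 and THBS1 was not tested.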

How the data were processed

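Per the labels' protocols, RNA was isolated with Trizol and sequenced from libraries of a SMARTER mRNA-seq kit. The authors deposited 1 table of 131516 transcript rows, 116485 of them with a symbol, on build hg38 per the submitters' processing notes. No source used here names the unit. The deposited values are read as FPKM because, multiplied by the transcript length of GENCODE release 29, 99.6 to 99.7% of values worth 0.5 to 100 reads lay within 0.05 of whole reads. Not given in the sources used here: the aligner, the quantification program, the use of strand and any removal of host reads. Reads of overlapping transcripts are uncertain.

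FPKM were summed per symbol. Genes and, separately, transcripts with 1 FPKM or more in 3 or more libraries were fitted in limma 3.58.1 (R 4.3.3) as log2(FPKM + 1), a scale that understates changes of low genes, with a variance trend and Benjamini-Hochberg adjustment over all features. Intervals are 95% intervals of that fit. Its calls, but not its intervals, were tested on simulated data. The genes and lists were chosen with earlier results of these data known. Named are all members, their transcripts with a group mean of at least 1 FPKM, up to 3 genes with the smallest p in each list, and the 3 genes most like VEGFA, ANGPTL4 and EDN1. Further genes were picked with their values in view. Of the list genes, 2 matched through an older symbol. Alternatives were upper-quartile scaling, quantile normalization, no filter on low values, a pseudocount of 0.1, no variance trend, the replicate number as a block, limma voom on recovered reads, removal of a trend on transcript length, and each library left out. The hypoxia targets and similar profiles without ESV replicate 3, and the pericyte sum without CSPG4, were added after seeing the data. Promoters came from RefSeq.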

Additional observations from a re-analysis of the deposited data

How the results depend on the processing

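The 9 genes were refitted under 14 alternatives, 126 values in all. None passed the threshold, with a smallest limma adjusted p of 0.314. In 118 values the sign was that of the 6-library fit on FPKM and in 8 it changed, all for VEGFA, PGF, ANGPTL4 or NRP1. Having no filter, no variance trend or the replicate block cannot alter a log2 change. The signs under these alternatives were fixed in advance and are counted among the 118. On recovered reads VEGFA was 0.12. With 1 library left out the log2 change ran from -0.68 to 0.14 for VEGFA, from -0.26 to 0.14 for PGF, from -0.21 to 0.85 for ANGPTL4 and from -0.23 to 0.18 for NRP1. It kept its sign for VEGFB (0.10 to 0.44), PDGFB (-0.75 to -0.24), EDN1 (-0.24 to -0.06), ANGPT1 (-0.63 to -0.25) and THBS1 (-0.45 to -0.02). The cause was not tested. Over all genes, 0 higher and 2 lower (PDXK and FAM168B) were called on recovered reads. Leaving out 1 library gave 0 to 1 higher and 0 to 4 lower, with AC068580.4 higher and PDXK, SEC16A, MBNL3 and NOL4L lower without ESV replicate 2, and GTF2F2 lower without ESV replicate 3. These genes were named after their values were seen. Of transcripts, 22 higher and 36 lower were called, against 14 and 18 with a pseudocount of 0.1, 0 and 0 with the replicate block, and 0 to 8 and 1 to 23 with 1 library left out. The labels do not say whether samples with the same replicate number were handled together. Deviations of same-numbered libraries correlated at -0.01, -0.01 and 0.03 over genes. With the replicate block 0 genes were called in either direction. In this balanced layout the block cannot alter a log2 change, so the unchanged signs say nothing about pairing. PGF, ANGPT1 and ANGPTL4 rest on few reads (57 to 730 per library), which limits what could be detected.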

Other observations

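ANGPT1 has pairs of coding transcripts whose reading frames differ by a single residue, which was noticed after the values were seen. ENST00000520734, of 298 residues, measured 1.13, 1.21 and 0 FPKM in ESV tumours and 1.31, 1.13 and 0 FPKM in controls. Its partner of 297 residues, ENST00000520052, was listed at 0 in every library but control replicate 3, where it measured 1.58 FPKM. Likewise ENST00000517746, of 498 residues, measured 0.520, 0.842 and 0.775 FPKM in ESV tumours and 0.807, 0.934 and 0 FPKM in controls, while ENST00000297450, of 497 residues, was listed at 0 except for 0.666 FPKM in control replicate 3. Of these 4 transcripts, control replicate 3 had values on the shorter of each pair alone and the other 5 libraries on the longer alone, with ESV replicate 3 at 0 for both of the shorter-frame pair.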
